A study of Setaria viridis with 40 samples.

Results

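The genes described here are those of the C4 grass *Setaria viridis* whose transcript levels were raised by high light at every time of a 4 h treatment and were little moved by high temperature. They were chosen on the measured values. For each gene the TPM (the authors' normalized read count) of the 4 replicates of a group was averaged, and the effect of a treatment was log2((treated + 1)/(control + 1)) at the same time point. A gene was a member when its high light effect was at least 1.5 at 1, 2 and 4 h, its high temperature effect was under 1 in size at 1, 2 and 4 h, and its mean was at least 5 TPM in every high light group. Of 38239 genes listed, 143 met the light thresholds and the TPM minimum. Of these, 27 had a high temperature effect of 1 or more in size, 11 upward and 16 downward, and 13 others belong to the pathway lists curated by the study and were left out. The remaining 103 genes are the members, and all 103 passed the filter on low counts that left 14293 genes for testing. Their high light and high temperature values at 1, 2 and 4 h are therefore a description of the choice. Only the 4 libraries of ctrl_0h took no part in it.

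All plants were of the accession ME034 and grew at 31 °C under 250 µmol photons m-2 s-1. The ctrl_0h leaves were sampled before treatment, and ctrl_1h, ctrl_2h and ctrl_4h stayed in these conditions for 1, 2 and 4 h. The HL_1h, HL_2h and HL_4h leaves were treated with 900 µmol photons m-2 s-1 at the control temperature, and the HT_1h, HT_2h and HT_4h leaves with 40 °C at the control light. Each group had 4 replicates, and each replicate joined 2 segments of 2 cm from the middle of the fourth leaf of 2 plants. The treatments ran in separate growth chambers, so that treatment and chamber cannot be told apart.

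Light is read in plants by photoreceptors and by the chloroplast. In Arabidopsis the bZIP factor HY5 acts downstream of the photoreceptors and binds promoters of flavonoid and pigment genes. Phenylpropanoids start from phenylalanine, a product of the shikimate pathway, and supply both lignin precursors and flavonoids that absorb short-wave light. Carotenoids and plastoquinone, made from plastid isoprenoids, take part in photoprotection and in electron transport, and ferritins store iron in plastids. C4 leaves divide such work between the mesophyll and the bundle sheath. The libraries were made from whole leaf segments, in which fewer cells of a type and less RNA per cell cannot be told apart.

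The 39 count columns used summed to 1422507 at the lowest and 4901131 at the highest (median 3694586). The libraries are of 3′ tags, and the deposited TPM were not divided by gene length, so levels of different genes can be set side by side as shares of tags. Markers of both leaf cell types were present throughout. The 8 mesophyll genes found summed to between 7098 and 19650 TPM per library with none under 1 TPM, and the 6 bundle sheath genes to between 9142 and 20374 TPM, with 1 of the 6 under 1 TPM. Among the columns of counts 1 is headed as HT_1h but holds the values of HL_1h replicate D. It was not used, which leaves 3 libraries of HL_1h in the fits on the deposited counts, while TPM at HL_1h rest on 4 files. Libraries carry 1 of 2 second index sequences. All ctrl_2h and ctrl_4h libraries have the same index, and 3 of the 4 HL_4h libraries have the other. Within that index of the controls the median high light effect of the members was 2.26 at 1 h (3 against 2 libraries), 2.28 at 2 h (3 against 4) and 2.31 at 4 h (1 against 4), and 96, 102 and 96 of the 103 genes were at 1.5 or above. The rule had used these same libraries, so these values are a description and do not test the index.

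The 103 genes made up a small part of the leaf transcriptome that was several times larger in high light. The rule required this of each gene and bounded its high temperature effect, so the shares are a description. Summed over the members, the share of all TPM was 0.353% ± 0.016 (SD, n = 4) at ctrl_0h and 0.343% ± 0.053 at ctrl_1h. It was 0.263% ± 0.027 at ctrl_2h and 0.189% ± 0.038 at ctrl_4h. In high light the share was 1.95% ± 0.15 at 1 h, 1.41% ± 0.091 at 2 h and 1.19% ± 0.10 at 4 h. The lowest HL_4h library, at 1.09%, was above the highest control library, at 0.395%. In high temperature the share was 0.284% ± 0.030 at 1 h, 0.290% ± 0.016 at 2 h and 0.188% ± 0.020 at 4 h, and the last of these lay within the range of ctrl_4h, 0.147 to 0.238%.

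**Figure D1:**
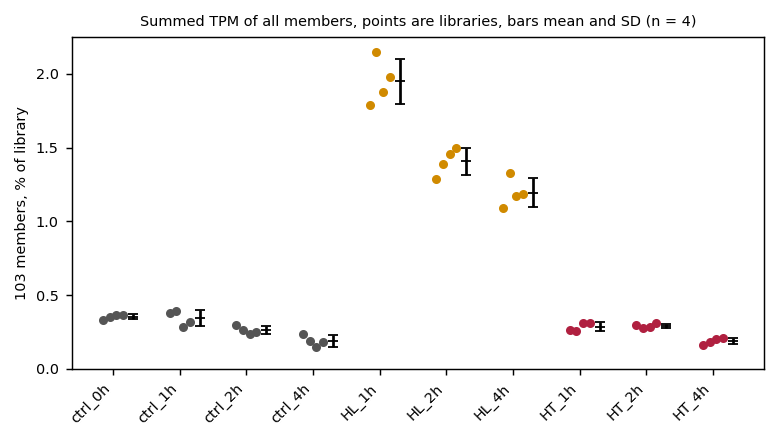
Summed TPM of the 103 genes as a percent of each library (vertical axis) in the 10 groups (horizontal axis). Points are libraries, and bars give the mean and SD of 4 libraries. High light libraries lie between 1.09 and 2.15%, above all control and high temperature libraries, a difference for which the rule chose the genes. The mean share was lower at 4 h than at 1 h in high light and in control.

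The median high light effect over the members was 2.28, 2.34 and 2.37 (log2) at 1, 2 and 4 h, and the largest was 6.12, 4.47 and 7.25. Over all tested genes the median was 0.00, 0.11 and 0.33. With TPM divided by TMM factors, which scale libraries to each other, the median over all tested genes was −0.01, 0.01 and 0.05. On these scaled values 75 of the 103 genes still met the rule. In edgeR all 103 members were called higher in high light at each of the 3 time points, against 9.29% of all tested genes at 1 h, 16.5% at 2 h and 13.5% at 4 h. The rule fixed this count, and nothing is read from it. Every high light library was above every control library of its time in 100 members at 1 h (9.05% of all tested genes), in 103 at 2 h (20.7%) and in 103 at 4 h (22.7%). The 3 genes that overlapped at 1 h were Sevir.1G076900, Sevir.2G233000 and Sevir.9G108000. High light libraries were above every high temperature library in 101, 102 and 101 members (13.5, 21.1 and 24.8% of all tested genes).

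**Figure D2:**
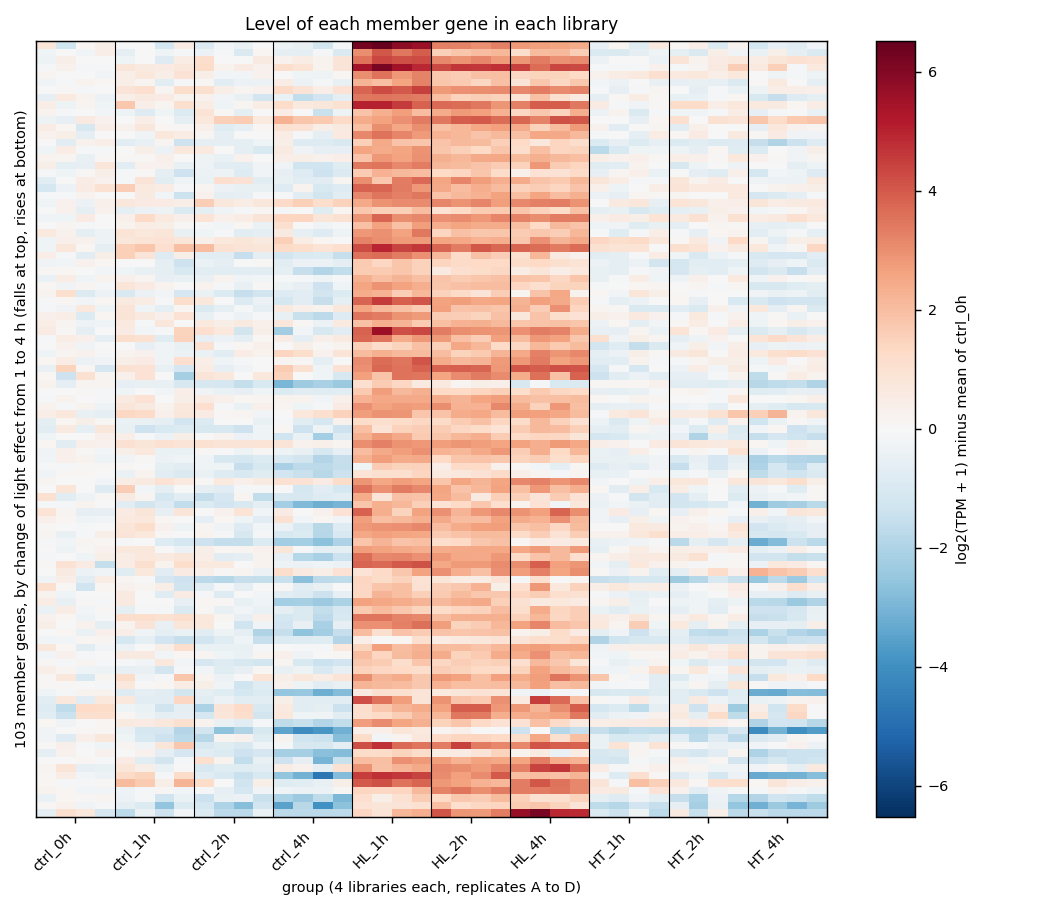
Level of each of the 103 genes (rows) in each of the 40 libraries (columns, by group), as log2(TPM + 1) minus the mean of ctrl_0h; red is higher and blue lower. Rows run from the genes whose light effect was most reduced from 1 to 4 h to those whose effect was most increased. The 12 high light libraries stand apart in nearly every row, while high temperature libraries differ little from the controls, a pattern for which the rule chose the genes.

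The thresholds cut through a continuum. The smallest of the 3 high light effects was 1.503 in Sevir.2G233000, 1.508 in *CFIM-25* and 1.509 in Sevir.6G193700, just inside, and 1.499 in Sevir.4G264300, 1.483 in Sevir.5G324300 and 1.482 in Sevir.1G019400, just outside. The largest high temperature effect in size was 0.993 in Sevir.5G263500, 0.990 in Sevir.2G406000 and 0.977 in Sevir.7G194400 inside, and 1.008 in Sevir.5G254100, 1.016 in Sevir.9G290000 and 1.029 in Sevir.9G379000 outside. The lowest mean of a high light group was 5.32 TPM in Sevir.1G346500, 5.52 in *PMI2* and 5.59 in *BKI1* inside, and 4.56 in Sevir.5G292300, 4.53 in Sevir.3G258700 and 3.88 in Sevir.3G148800 outside.

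Of the 103 genes, 83 had an annotation and 52 fell into at least 1 of the functional lists. The annotated genes are mostly those the study called in these samples, so these lists are not independent evidence of a direction. The lists with most members were transport and carbon metabolism with 7 and flavonoid genes with 6.

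Members of light signalling were both copies of *HY5*, *PKS4* and a gene of the NPH3 family. Sevir.1G043300 and Sevir.4G234900 share the same best Arabidopsis match, *HY5*. The first was at 69.9, 62.1, 40.0 and 38.9 TPM in ctrl_1h and at 223, 247, 236 and 227 TPM in HL_1h. Its 4 HL_4h libraries were at 88.0, 117, 73.1 and 117 TPM, and its ctrl_4h libraries at 18.9, 20.3, 9.67 and 18.7 TPM. The groups did not overlap at either time, and levels were lower at 4 h than at 1 h in both treatments, so that the ratio of the means was 4.42 at 1 h and 5.85 at 4 h. The second copy was at 21.5, 21.8, 19.3 and 22.0 TPM in ctrl_1h and at 112, 114, 95.1 and 88.2 TPM in HL_1h. At 4 h it was at 3.60, 4.35, 2.09 and 4.11 TPM in controls and at 27.5, 45.2, 25.4 and 29.8 TPM in high light. Every HL_4h library was above every ctrl_1h library, and the ratio at 4 h was 9.04. In high temperature the first copy was called higher at 2 h (effect 0.65) and the second lower at 1 h (−0.63), against 5.38% and 5.41% of all tested genes called in these directions. Over the 40 libraries the deviations of the 2 copies from their group means had a correlation of 0.62, which shares library and depth. Reads that match both copies could have been divided between them by the authors' estimation.

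*PKS4*, a phytochrome kinase substrate that acts in Arabidopsis phototropism, was at 3.76 ± 1.48 TPM (mean ± SD, n = 4) in ctrl_1h and 14.0 ± 4.49 in HL_1h. Sevir.5G121000, of the family of the phototropism protein NPH3, was at 1.13 ± 0.969 and 7.36 ± 2.27 TPM. At 2 h the latter had 0 to 3 counts in the control libraries and 24 to 45 in high light. These are low levels, and their log2 effects, 1.65, 2.04 and 1.62 for *PKS4* and 1.97, 2.64 and 1.72 for Sevir.5G121000 at 1, 2 and 4 h, are reduced by the added 1 TPM. Of the 33 tested genes of the light signalling list, edgeR called 11 higher and 11 lower in HL_1h, 12 and 12 in HL_2h, and 10 and 12 in HL_4h.

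The other transcription factors among the members were *MYB12*, *ERF-1* and *ILR3*. *MYB12*, which in Arabidopsis activates flavonol synthesis genes, was at 9.63, 7.06, 2.30 and 10.8 TPM in ctrl_1h and at 39.7, 42.9, 28.3 and 33.3 TPM in HL_1h. At 4 h the controls were at 0.450, 0.483, 0.784 and 2.28 TPM and high light at 24.6, 41.1, 27.6 and 21.1 TPM. The high light level was lowest at 2 h (13.0 ± 3.07 TPM), and the groups did not overlap at any time. *ERF-1*, an ethylene-responsive factor of the AP2 family, was low in controls, at 1.93, 1.18, 3.46 and 7.70 TPM in ctrl_1h, and was at 46.1, 68.4, 32.9 and 28.1 TPM in HL_1h. It was kept at 34.9 ± 9.56 TPM in HL_4h against 0.634 ± 0.518 TPM in ctrl_4h. Its effects were 3.30, 4.41 and 4.46, among the 8 members with the largest smallest effect. Of the 121 tested transcription factors on the list, 32 were called higher and 42 lower in HL_1h, 37 and 44 in HL_2h, and 29 and 43 in HL_4h.

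The entry to the aromatic pathways was represented by a DAHP synthase and an arogenate dehydratase. DAHP synthase catalyses the first step of the shikimate pathway, and the member Sevir.2G406000 was at 77.0, 92.1, 47.5 and 93.2 TPM in ctrl_1h and at 604, 811, 678 and 950.0 TPM in HL_1h. It was at 294, 338, 347 and 365 TPM in HL_2h and at 382, 430.1, 359 and 402 TPM in HL_4h, against 102, 80.5, 57.5 and 80.6 TPM in ctrl_4h. The ratio of means was 9.82 at 1 h and 4.899 at 4 h. This was also the only member called in high temperature at all 3 times, always lower: it was at 39.3, 28.9, 38.6 and 47.1 TPM in HT_1h, below every ctrl_1h library, and its effects were −0.99, −0.76 and −0.65. *ADT6* (Sevir.7G095100), an arogenate dehydratase of the last step to phenylalanine, was at 11.3 ± 3.72 TPM in ctrl_1h and 64.4 ± 11.4 in HL_1h, with effects of 2.41, 1.76 and 1.61. Of the 6 tested genes of this list, 3 were called higher and 1 lower in HL_1h, 5 and 1 in HL_2h, and 4 and 0 in HL_4h. The list was drawn from annotation words and also holds an anion channel, *VDAC1*, which was called higher at 2 and 4 h, and the isochorismate synthase *ICS2*, which was the gene called lower, with effects of −1.59, −1.72 and −0.27. Neither makes phenylalanine. Another *ADT6* copy, Sevir.2G137000, was outside the rule with effects of 0.85, 0.52 and 0.63. A second DAHP synthase, Sevir.9G384400, was outside the rule with effects of 1.12, 2.05 and 2.88 in high light and −1.17 in HT_1h.

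*TSB2*, the beta subunit of tryptophan synthase, draws on the same pathway. It was at 118 ± 32.7 TPM in ctrl_1h and at 441 ± 33.7 TPM in HL_1h, with effects of 1.90, 2.20 and 1.84. With *THA2*, a threonine aldolase, it made up the members of the amino acid list, of which 29 genes were tested. Of these 6, 12 and 14 were called higher and 5, 7 and 10 lower in HL_1h, HL_2h and HL_4h.

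General phenylpropanoid synthesis contributed *C4H* and *4CL3*, whose high light means were more than 5-fold those of the controls at every time. *C4H* (Sevir.3G295500), the hydroxylase that makes *p*-coumarate from cinnamate, was at 121, 111, 72.0 and 179 TPM in ctrl_1h and at 1113, 1870.5, 1182 and 1387 TPM in HL_1h. It was at 367, 512, 446 and 251 TPM in HL_4h against 35.7, 49.8, 27.2 and 50.2 TPM in ctrl_4h. No libraries of the 2 treatments overlapped, and the ratio was 11.5 at 1 h, 6.38 at 2 h and 9.68 at 4 h. *4CL3*, a ligase that activates *p*-coumarate with CoA, was at 13.8, 7.94, 8.06 and 26.6 TPM in ctrl_1h and at 146, 471, 186 and 205 TPM in HL_1h. In HL_1h replicate B was more than 2-fold above the others, and all 4 were above every control. At 4 h it was at 77.0, 99.9, 95.3 and 52.8 TPM in high light and at 1.12, 7.98, 3.92 and 5.25 TPM in controls. All 10 genes of this list were tested, and 6, 7 and 9 of them were called higher in HL_1h, HL_2h and HL_4h with none lower. At each time 1 of those called was *OPCL1*, a CoA ligase of jasmonate synthesis that the list's words also picked. The list also holds *PAL1* and *PAL2*, which make cinnamate from phenylalanine and were outside the rule. The *PAL1* copy Sevir.1G245300 had light effects of 3.80, 4.44 and 3.00 and an effect of −2.44 in HT_1h. The other *PAL1* copies had light effects of 0.62, 1.24 and 2.29 (Sevir.1G245000) and of 0.82, 1.08 and 1.70 (Sevir.1G245100), and *PAL2* (Sevir.7G178300) of 2.09, 1.15 and 4.45. A second *C4H* copy, Sevir.5G366500, had light effects of 0.65, 0.72 and 1.18. The *4CL2* copies had light effects of 0.72, 1.26 and 0.82 (Sevir.1G065000) and of −0.76, −0.54 and 1.23 (Sevir.4G201300). The latter was at 1.71 TPM in ctrl_1h and had an effect of 1.15 in HT_4h.

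*HCT* (Sevir.7G292000), the acyltransferase that leads *p*-coumaroyl-CoA towards lignin precursors and chlorogenic acids, had the largest light effect of all members at 1 h. It was at 3.03, 3.24, 0.864 and 5.01 TPM in ctrl_1h and at 313, 377, 230.2 and 202 TPM in HL_1h, a ratio of 92.4. At 2 h it was at 39.8, 37.7, 31.3 and 39.1 TPM and at 4 h at 27.2, 24.9, 23.9 and 21.1 TPM in high light, while controls stayed between 0.784 and 3.11 TPM. The level was thus more than 10-fold lower at 4 h than at 1 h of high light, and still above every control. Of the 9 tested genes of the hydroxycinnamate and lignin list, 4, 5 and 5 were called higher and 1, 2 and 1 lower at the 3 times. Light effects were negative in the cinnamyl alcohol dehydrogenase *CAD9* (Sevir.2G207500), at −1.34, −1.80 and −1.70. They were also negative in *CAD4* (Sevir.1G056800), at −0.56, −1.01 and −0.60. *CYP98A3*, which acts on the product of HCT, was outside the rule with effects of 1.33, 1.67 and 2.03. The other 2 *HCT* copies had effects of −0.25, −0.06 and −0.12 (Sevir.1G234000) and of 1.12, 1.34 and 1.77 (Sevir.4G045000).

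The 6 flavonoid members were *CHS*, a chalcone isomerase family gene, a flavonoid 3′-hydroxylase, *MYB12*, *CYP93D1* and *CXE13*. *CHS*, chalcone synthase, makes the first flavonoid intermediate. It was at 204, 230.4, 163 and 173 TPM in ctrl_0h, at 129, 101, 31.7 and 103 TPM in ctrl_1h and at 15.96, 53.9, 11.5 and 28.5 TPM in ctrl_4h. In high light it was at 353, 336, 343 and 378 TPM at 1 h and at 628, 662, 517 and 344 TPM at 4 h. Every ctrl_4h library was below every ctrl_0h library, and the ratio of high light to control was 3.87 at 1 h, 8.73 at 2 h and 19.6 at 4 h. The high temperature libraries were split at 2 h, with 131, 42.2, 138 and 32.2 TPM.

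Sevir.8G012200, a chalcone isomerase family gene, was at 20.1, 7.94, 5.47 and 13.1 TPM in ctrl_1h and at 58.7, 56.8, 115 and 98.2 TPM in HL_1h. It was at 84.7, 148, 77.8 and 68.3 TPM in HL_4h against 4.72, 8.94, 0.784 and 4.34 TPM in ctrl_4h. Its high light level differed little between the times, at 82.1 ± 29.0, 84.0 ± 11.6 and 94.6 ± 35.9 TPM, and the larger ratio at 4 h, 20.1 against 7.05 at 1 h, went with the lower control.

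The flavonoid 3′-hydroxylase Sevir.9G242900, matched to Arabidopsis *TT7* and known for hydroxylating the B ring of flavonoids, had the largest light effect at 4 h. It was at 7.50, 4.91, 13.7 and 16.2 TPM in HL_1h, at 55.6, 23.4, 21.4 and 32.2 TPM in HL_2h and at 169, 241, 98.5 and 95.7 TPM in HL_4h. The 3 high light groups did not overlap with each other. Controls were at 0, 1.47, 0.288 and 1.93 TPM at 1 h, and no read was counted in any of the 4 ctrl_4h libraries against 318 to 889 counts in HL_4h. The level in HL_4h was at least 210-fold higher than in ctrl_4h, with 3 counts per library as the floor. Other genes with the *TT7* match were outside the rule. Their light effects were 0.14, −0.89 and −0.74 (Sevir.2G043800) and 0.91, 1.68 and 1.07 (Sevir.9G399700). For Sevir.9G399800 they were 0.97, 1.31 and 0.89, and for Sevir.9G399900 1.05, 1.89 and 1.36.

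*CYP93D1*, a cytochrome P450 annotated as an isoflavonoid synthase, was at 22.4 ± 2.07 TPM in ctrl_1h and 117 ± 21.7 in HL_1h, with effects of 2.33, 2.05 and 1.81. *CXE13* was listed through its annotated enzyme class and is a carboxylesterase, with effects of 2.43, 2.15 and 2.00. Of the 22 tested genes of the flavonoid list, 11 were called higher and 2 lower in HL_1h, 14 and 3 in HL_2h, and 13 and 2 in HL_4h. These include *CYP78A6*, called higher at 1 h, and *CYP78A10*, called lower at 2 h, which are P450 genes not known for flavonoid synthesis. Light effects were negative in *BAN* (Sevir.7G260900), at −0.74, −0.44 and −0.66. In *ANS* (Sevir.1G000600), at 2.16 TPM in ctrl_1h, they were −0.90, −0.36 and −0.32. Another chalcone isomerase family gene, Sevir.7G312700, missed the rule at 2 h with effects of 1.85, 1.45 and 2.63. Others of this family had effects of −0.13, 0.27 and 0.15 (Sevir.1G142700) and of 0.89, 1.75 and 1.01 (Sevir.1G346300).

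**Figure D3:**
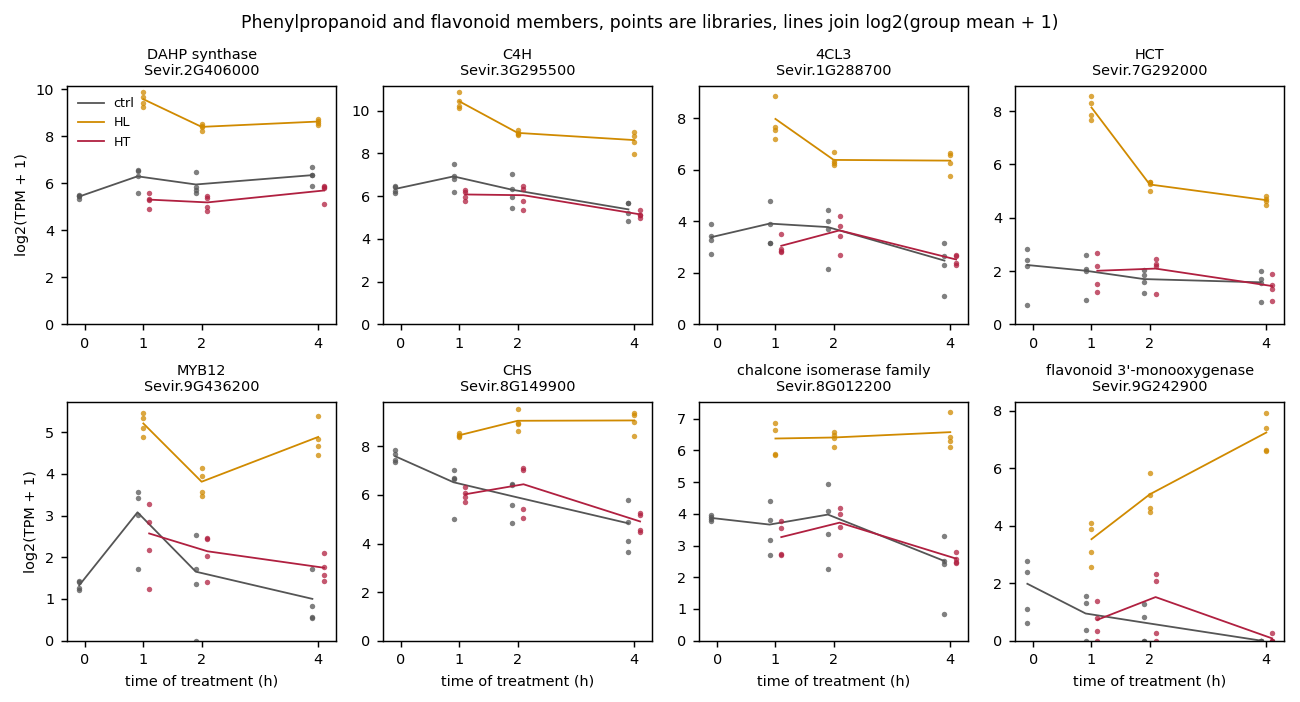
Levels of 8 phenylpropanoid and flavonoid genes as log2(TPM + 1) (vertical axes) against time of treatment in hours (horizontal axes). Points are libraries of control, high light and high temperature, and lines join log2 of the group mean plus 1. *HCT* is highest at 1 h of high light and lower after it, the 3′-hydroxylase climbs from 10.6 to 151 TPM in mean, and in *CHS* and the chalcone isomerase family gene the controls lie lower at 4 h than at 0 h.

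Genes of glycosyltransferase and MATE carrier families were also among the members, and their substrates were not measured. Sevir.6G257200, a MATE efflux family gene, was at 9.08, 11.2, 5.76 and 16.2 TPM in ctrl_1h and at 139, 251, 222 and 229 TPM in HL_1h. It was at 89.5, 125, 95.3 and 103 TPM in HL_4h against 13.7, 16.2, 13.1 and 20.6 TPM in ctrl_4h. The ratio was 19.9 at 1 h and 6.50 at 4 h, and no high light library overlapped with a control. The other MATE gene, Sevir.9G181800, was at 11.2 ± 3.75 TPM in ctrl_1h, 43.6 ± 4.97 in HL_1h and 71.9 ± 24.7 in HL_4h, and was called higher in high temperature at 1 and 2 h (effects 0.82 and 0.77).

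The 4 UDP-glycosyltransferases were *UGT84A1*, *UGT71C4*, *UGT88A1* and Sevir.9G131100. UGT84A1 is known in Arabidopsis to attach glucose to hydroxycinnamates. It was at 65.3 ± 11.5 TPM in ctrl_1h and 255 ± 57.0 in HL_1h, with effects of 1.95, 1.60 and 2.92. *UGT71C4* had effects of 3.12, 2.36 and 2.99, *UGT88A1* of 3.14, 2.40 and 3.56, and Sevir.9G131100 of 2.81, 2.12 and 3.46. In all 4 the effect was smallest at 2 h. Of 43 tested glycosyltransferases, 19, 24 and 24 were called higher and 8, 7 and 9 lower at the 3 times, and of 23 tested MATE genes 12, 10 and 10 higher and 6, 6 and 7 lower.

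Plastid isoprenoid and pigment genes among the members were *PSY*, *SPS2* and *NYC1*. *PSY*, phytoene synthase, catalyses the first committed step to carotenoids. It was at 189, 129, 128 and 86.7 TPM in ctrl_1h and at 789, 724, 679 and 580.0 TPM in HL_1h. At 4 h it was at 25.8, 27.3, 23.3 and 29.7 TPM in controls and at 248, 191, 199 and 184 TPM in high light. The lowest HL_4h library was close to the highest ctrl_1h library, and the ratio to the control of its own time was 5.20, 4.92 and 7.74. *SPS2*, solanesyl diphosphate synthase, which makes the side chain of plastoquinone, was at 61.6, 90.0, 52.1 and 21.6 TPM in ctrl_1h and at 524, 668, 594 and 657 TPM in HL_1h. It was at 234, 362, 247 and 303 TPM in HL_4h against 57.3, 36.7, 25.9 and 35.2 TPM in ctrl_4h, with no overlap. *NYC1*, a chlorophyll b reductase of chlorophyll breakdown, was at 7.93 ± 4.00 TPM in ctrl_1h, 25.7 ± 10.8 in HL_1h and 61.2 ± 30.0 in HL_4h, with effects of 1.58, 1.65 and 2.73. Of the 28 tested genes of this list, 14, 14 and 16 were called higher and 5, 5 and 5 lower at the 3 times.

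Iron genes were 2 ferritins and *ILR3*. Sevir.7G340416 and Sevir.8G017800 are both matched to Arabidopsis *FER4*, and reads shared between them could have been divided, so the level of each copy is uncertain. The first was at 24.5, 21.8, 11.2 and 18.5 TPM in ctrl_1h and at 65.6, 103, 139 and 165 TPM in HL_1h. In HL_2h it was at 188, 472, 472 and 216 TPM and in ctrl_2h at 6.26, 53.2, 71.1 and 14.4 TPM. Replicates differed widely without overlap between treatments, and the same libraries were high in both copies: ctrl_2h replicates B and C, HL_2h replicates B and C and ctrl_0h replicates C and D. The second copy was at 20.8, 82.5, 103 and 19.8 TPM in ctrl_2h and at 216, 512, 504 and 243 TPM in HL_2h. Over the 40 libraries the deviations of the copies from their group means had a correlation of 0.96. *ILR3*, a bHLH regulator of iron homeostasis, was at 43.2 ± 5.97 TPM in ctrl_0h, 19.7 ± 5.59 in ctrl_1h, 59.1 ± 21.3 in HL_1h and 97.1 ± 15.2 in HL_4h. All 10 iron genes of the list were tested, and 5 were called higher at each time with 2, 2 and 4 lower.

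Members with roles in plastid and mitochondrial transport and carbon metabolism included *NTT1*, *PPCK1*, *PPa4* and *PHT4;5*. *NTT1*, the plastid ATP/ADP carrier, had a higher control level later in the day. It was at 23.7, 32.1, 23.0 and 14.6 TPM in ctrl_1h and at 115, 82.9, 77.1 and 56.4 TPM in ctrl_4h, without overlap. In high light it was at 130.5, 147, 192 and 252 TPM at 1 h and at 319, 228, 425 and 400.1 TPM at 4 h, and the ratio was 7.72 at 1 h and 4.15 at 4 h. *PPCK1*, the kinase that phosphorylates PEP carboxylase, the enzyme that fixes carbon in C4 mesophyll, was at 19.5, 30.6, 15.6 and 2.70 TPM in ctrl_1h and at 103, 58.4, 188 and 181 TPM in HL_1h. It was at 85.9, 195, 61.2 and 233 TPM in HL_4h and at 46.1, 15.0, 12.8 and 7.08 TPM in ctrl_4h. The ratio of means was between 5.79 and 7.76, while replicates of ctrl_1h alone ran from 2.70 to 30.6 TPM. *PPa4*, a soluble inorganic pyrophosphatase, had effects of 2.69, 2.49 and 2.78, and *PHT4;5*, a plastid phosphate transporter, of 2.40, 2.88 and 2.75. Of the 33 tested genes of this list, 17, 20 and 21 were called higher and 5, 7 and 5 lower.

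**Figure D4:**
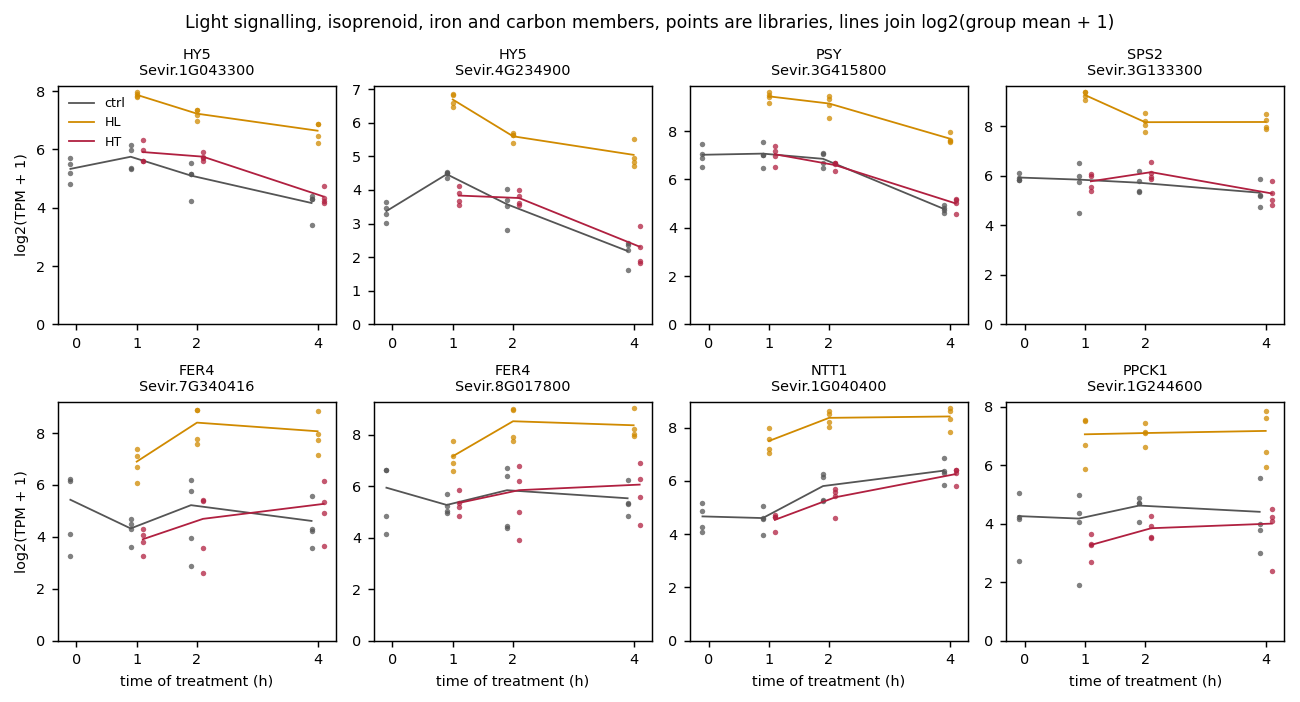
Levels of both *HY5* copies, *PSY*, *SPS2*, both *FER4* copies, *NTT1* and *PPCK1* as log2(TPM + 1) (vertical axes) against time of treatment in hours (horizontal axes). Points are libraries and lines join log2 of the group mean plus 1. High light lies above control and high temperature in all 8 panels, levels of *HY5* and *PSY* are lower at 4 h than at 1 h in all treatments, and *NTT1* is higher.

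Members with a place in ascorbate and cytochrome P450 supply, named after their values were seen, were *VTC1*, *PHT4;4* and *ATR2*. VTC1 makes GDP-mannose, a precursor of ascorbate and of cell wall sugars, and was at 20.9 ± 4.34 TPM in ctrl_1h and 103 ± 8.95 in HL_1h. PHT4;4, known in Arabidopsis as a chloroplast ascorbate transporter, was at 2.32 ± 0.589 and 14.9 ± 2.61 TPM. *ATR2*, the reductase that passes electrons to P450 enzymes such as C4H, was at 13.0 ± 1.52 TPM in ctrl_1h, 112 ± 3.77 in HL_1h and 22.8 ± 10.7 in HL_4h.

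The 4 members of the hormone list were *ERF-1*, *BKI1*, *GA2OX1* and *CXE13*. *BKI1*, an inhibitor of the brassinosteroid receptor in Arabidopsis, was at 0.275, 0.882, 0.576 and 0.770 TPM in ctrl_1h, which is 1 to 3 counts per library, and at 15.0, 30.7, 19.98 and 28.8 TPM in HL_1h. At 4 h it had 0 to 3 counts in controls and was at 3.29, 7.04, 7.21 and 4.81 TPM in high light. *GA2OX1*, which inactivates gibberellins, was at 1.03 ± 0.712 TPM in ctrl_1h and 9.28 ± 7.17 in HL_1h, with effects of 2.34, 2.50 and 2.66. Of the 90 tested hormone genes, 27, 36 and 31 were called higher and 21, 26 and 24 lower.

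The highest level of any member belonged to a gene of the dynein light chain family. Sevir.2G363200 was at 174, 202, 69.4 and 164 TPM in ctrl_1h and at 1671, 1983, 1797 and 1572 TPM in HL_1h. It was at 287, 299, 269 and 333 TPM in HL_4h and at 11.5, 7.73, 1.83 and 9.13 TPM in ctrl_4h. The level was lower at 4 h in both treatments, more so in the controls, and the ratio went from 11.5 at 1 h to 20.5 at 2 h and 39.4 at 4 h. The other genes with high levels were *C4H*, Sevir.5G369000, Sevir.1G106700 and Sevir.1G125900. Together these 5 gave 27.3% of the TPM that the members summed to in high light. Sevir.1G125900, a TypA-like translation factor related to the plastid factor SVR3, was at 562 ± 98.6 TPM in ctrl_0h, 318 ± 56.3 in ctrl_1h, 1026 ± 149 in HL_1h and 485 ± 43.1 in HL_4h. *CP1*, a calcium-binding EF-hand protein, was at 64.5 ± 33.9 TPM in ctrl_1h and 835 ± 278 in HL_1h, with effects of 3.67, 3.204 and 2.78.

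Further members belonged to cell wall, lipid, phosphatase and organelle lists. The cell wall members were the beta-galactosidase *BGAL1* (effects 1.70, 2.41 and 2.51), a mannan endo-mannosidase, Sevir.5G263500 (1.69, 2.55 and 2.14), and 2 pectin methylesterase inhibitor family genes, Sevir.5G059000 (2.72, 2.49 and 2.13) and Sevir.2G268800 (2.92, 2.17 and 2.10). The last was at 0.860 TPM in ctrl_1h and 13.1 TPM in HL_1h. The lipid members were a patatin-like acyl hydrolase, *PLP7* (2.93, 2.52 and 2.54), an esterase family gene, Sevir.5G166200 (3.03, 2.22 and 3.27), and a gene of the lecithin-cholesterol acyltransferase family, Sevir.9G104800 (2.26, 2.11 and 2.26). Of the 40 tested cell wall genes 10, 25 and 22 were called higher and 8, 6 and 6 lower, and of the 55 lipid genes 22, 23 and 23 higher and 10, 13 and 14 lower.

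Kinases and phosphatases were *PPCK1*, *DBP1*, *PAP10*, Sevir.7G194400 and Sevir.2G362100. *DBP1*, a protein phosphatase of the 2C class, had effects of 2.14, 1.91 and 2.00, and *PAP10*, a purple acid phosphatase, of 1.90, 2.65 and 2.23. The kinase family gene Sevir.7G194400 was at 3.90 ± 0.767 TPM in ctrl_1h and 21.4 ± 2.21 in HL_1h, and was called lower in high temperature at 1 and 4 h (effects −0.98 and −0.97). *HCF152*, which in Arabidopsis binds and processes chloroplast transcripts, was steady in controls, at group means of 10.3 to 11.9 TPM, and was at 53.6 ± 6.88, 43.3 ± 3.06 and 40.5 ± 6.38 TPM in high light. With the TypA-like gene it was 1 of 2 members among 218 tested genes of ribosome and organelle expression, of which 33, 130 and 77 were called higher and 18, 19 and 20 lower. Of the 195 tested kinase and phosphatase genes 50, 59 and 63 were called higher and 47, 78 and 63 lower.

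A pair of mannose-binding lectin genes, Sevir.3G190200 and Sevir.5G341800, share their best Arabidopsis match. They had effects of 2.45, 2.41 and 1.62, and of 2.04, 2.57 and 1.57. Both were called lower in HT_4h (effects −0.92 and −0.68), and their deviations from group means had a correlation of 0.56 over the 40 libraries. *SAG21*, a late embryogenesis abundant protein named after its values were seen, was at 59.7, 45.3, 24.8 and 34.3 TPM in ctrl_1h, at 269.5, 129.9, 161 and 193 TPM in HL_1h and at 338, 754, 877 and 451 TPM in HL_4h. It was higher in every HL_4h library than in any HL_1h library.

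There were 20 members without annotation in the sources used here, and some had large effects. Sevir.9G259600 had 2 to 3 counts in the ctrl_1h libraries and 170 to 303 in HL_1h. It was at 45.5, 78.2, 46.3 and 31.3 TPM in HL_1h and at 22.8, 12.2, 20.6 and 20.2 TPM in HL_4h, with no control above 1.503 TPM. Sevir.9G339900 had effects of 3.22, 3.68 and 3.09, and Sevir.1G076900 of 2.84, 3.09 and 3.72, the latter with libraries that overlapped at 1 h. Sevir.5G369000 was at 280.1, 363, 198 and 128 TPM in ctrl_1h, at 1158, 1249, 1296 and 1442 TPM in HL_1h and at 579, 643, 414 and 678 TPM in HL_4h.

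The effect of high light was kept at 3 time points, but levels in high light were not constant. The high light mean was lower at 4 h than at 1 h in 72 of 103 members (69.9%), against 25.6% of all tested genes, and at least 2-fold lower in 38 (36.9%, against 4.39%). It was highest at 1 h in 66 members, at 2 h in 11 and at 4 h in 26. Over the 14293 tested genes these counts were 2510, 2874 and 8909. Every HL_1h library was above every HL_4h library in 44 members (5.37% of all tested genes), and the reverse held in 7 (29.6%). These TPM were not scaled by TMM factors. Over all tested genes the median log2 change from HL_1h to HL_4h was itself 0.43, against −0.59 in the members. Of the 4 libraries of each group, 3 of HL_1h carry 1 second index and 3 of HL_4h the other. The part of scaling and index in these shares was not tested. Controls were lower at 4 h than at 1 h in 77 members (74.8%, against 40.9%). In 63 members both were lower, against 2731 of the 14293 tested genes. In 29 members the effect was larger at 4 h than at 1 h although the high light level was lower. This held in 1622 of the 14293 tested genes. Since the rule needed an effect of 1.5 at both times and a level of 5 TPM, it bears on all these counts, and they are given as a description.

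**Figure D5:**
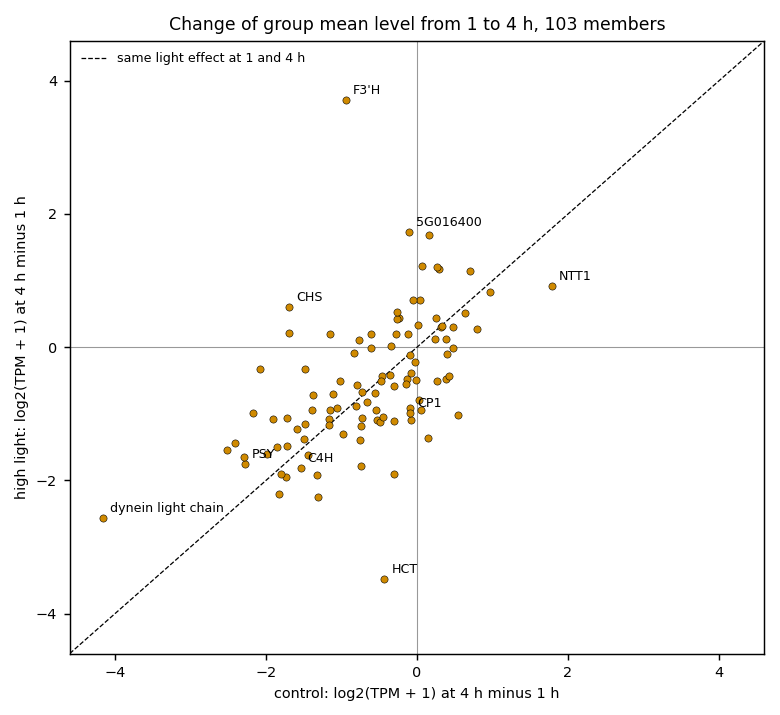
Change of the group mean from 1 to 4 h, as log2(TPM + 1) at 4 h minus 1 h, in control (horizontal axis) and in high light (vertical axis). Each point is 1 of the 103 genes, and on the dashed diagonal the light effect was the same at both times. Most points lie in the lower left, where both levels were lower at 4 h; *HCT* lies farthest below the diagonal and the flavonoid 3′-hydroxylase (F3'H) farthest above it.

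The change of the light effect from 1 to 4 h was called in 10 members, 4 larger (2.08% of all tested genes) and 6 smaller (2.24%). Larger at 4 h were the effects of *CHS* (log2 change 2.07 ± 0.62, SE), Sevir.1G106700, a gene with a DUF4079 domain (1.87 ± 0.47), Sevir.5G016400, annotated without a function (1.83 ± 0.35), and the flavonoid 3′-hydroxylase, whose fitted change has no bound because ctrl_4h held no reads. Smaller were the effects of *HCT* (−3.42 ± 0.58), the MATE gene Sevir.6G257200 (−1.90 ± 0.35), *CP1* (−1.39 ± 0.38), *CFIM-25*, a subunit of the mRNA cleavage factor (−1.31 ± 0.26), the DAHP synthase (−1.16 ± 0.30) and *BGLU11*, a beta-glucosidase (−0.94 ± 0.25). The split differed between fits. With total counts in place of TMM factors 9 were larger and 3 smaller, and in a fit on reads recovered from the TPM files with the second index as a covariate 2 were larger and 8 smaller. Without HL_1h replicate B, 5 changes were called. Sevir.5G016400 was at 19.5 ± 5.77 TPM in HL_1h, 65.3 ± 8.97 in HL_2h and 67.1 ± 7.12 in HL_4h, over control means of 3.93 to 5.84 TPM.

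The controls of many members were lower later in the day. Compared with ctrl_0h, ctrl_4h was called lower in 41 members (17.6% of all tested genes) and higher in 8 (19.7%), with a median log2 change of −0.73, against 0.04 over all tested genes. At 2 h 15 were lower (3.76%) and 4 higher (4.81%), and at 1 h 4 were lower (2.07%) and 12 higher (3.92%). These later controls are the denominators of the rule, so that a lower control made membership more likely. Every ctrl_0h library was above every ctrl_4h library in 35 members (14.3% of all tested genes), above every ctrl_2h library in 16 (6.65%) and above every ctrl_1h library in 7 (5.63%). The larger shifts included the TypA-like gene (log2 change −2.78 ± 0.18, SE), *CHS* (−2.82 ± 0.45), *PSY* (−2.30 ± 0.23) and the dynein light chain gene (−3.33 ± 0.37), while *NTT1* (1.77 ± 0.29) and *CYP93D1* (1.37 ± 0.25) were higher. Without ctrl_0h replicate D, 9 in place of 16 members were called between ctrl_1h and ctrl_0h, and without ctrl_1h replicate D 7.

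Against ctrl_0h itself, high light means were higher in all 103 members at 1 and 2 h and in 99 at 4 h. The rule had chosen genes by their high light groups, so this comparison is not independent of the choice. The median ratio of the high light mean to ctrl_0h was 6.03, 4.98 and 4.04 at 1, 2 and 4 h. Every high light library was above every ctrl_0h library in 95, 97 and 86 members (10.2, 23.1 and 31.5% of all tested genes). The 4 genes whose HL_4h mean was below that of ctrl_0h were the TypA-like gene, Sevir.2G102600, Sevir.2G233000 and Sevir.9G224200, a glucosylceramidase family gene.

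High temperature effects were bounded by the rule, and the share of members called at any time was near that of all tested genes. They ranged from −0.99 to 0.92 at 1 h, from −0.86 to 0.96 at 2 h and from −0.97 to 0.99 at 4 h, with medians of −0.28, 0.15 and 0.08. In 32 members they were within 0.5 at all 3 times, in 20 negative and in 15 positive at all times. These are 31.1%, 19.4% and 14.6% of the members, and over all tested genes the shares were 44.3%, 17.8% and 18.7%. The edgeR log2 changes of the members in high temperature, without the added 1 TPM, were spread more widely. They ran from −2.85 to 1.46 at 1 h, from −1.09 to 2.41 at 2 h and from −1.65 to 1.55 at 4 h. The edgeR fit called 4 members higher (5.07% of all tested genes) and 9 lower (5.41%) at 1 h, 9 higher (5.38%) and 1 lower (5.37%) at 2 h, and 1 higher (4.22%) and 8 lower (5.60%) at 4 h. In all, 26 of the 103 (25.2%) were called at any time and 77 at none, against 25.3% of all tested genes called at any time. Some members had few reads outside high light and passed the count filter through it. *BKI1* had at most 5 counts in any control or high temperature library, Sevir.2G268800 at most 6 and Sevir.9G259600 at most 7. Such genes could hardly be called in high temperature, so the choice of genes partly set these counts and shares. The genes called at 1 h included *UGT71C4* (effect −0.76) and *CP1* (−0.91), at 2 h *BGLU11* (0.51) and *CFIM-25* (0.52), and at 4 h *THA2* (0.88), *CYP93D1* (−0.74), *PPa4* (−0.56) and *PAP10* (−0.78). Libraries of high temperature and control did not overlap in 3 members upward and 9 downward at 1 h (5.90 and 6.42% of all tested genes), in 11 and 3 at 2 h (7.68 and 7.82%), and in 5 and 4 at 4 h (10.5 and 6.82%).

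The counts in high temperature depended on single libraries. At 1 h the 13 calls became 5, 7 and 7 without ctrl_1h replicates A, B and D, and 5, 6 and 7 without each of 3 HT_1h columns whose headers do not settle the replicate. At 2 h the 10 calls became 2, 4 and 4 without ctrl_2h replicates B, C and D, and 2 and 1 without HT_2h replicates A and B. At 4 h the 9 calls became 4 without ctrl_4h replicate A and 2, 3 and 3 without HT_4h replicates B, C and D. With the second index as a covariate 4 calls were left at 2 h and 3 at 4 h. With total counts in place of TMM factors 9 members were called at 4 h, 3 higher and 6 lower, which need not be the same genes.

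By the chromosome in the gene ID, the members were spread over all 9 chromosomes. Chromosome 5 held 20 of them (19.4%, against 14.6% of all tested genes) and chromosome 9 held 15 (14.6%, against 19.2%). At ctrl_1h their median level was 11.9 TPM, with 28 members under 5 TPM and 10 at 100 TPM or more, and at HL_1h the median was 64.5 TPM, with 42 at 100 TPM or more. The coefficient of variation between replicates had a median over the members of 23.4, 19.6 and 25.6% in HL_1h, HL_2h and HL_4h, and of 35.9, 33.1 and 35.1% in the controls of these times.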

How the data were processed

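RNA of 40 leaf libraries was sequenced with QuantSeq 3′ FWD chemistry, which reads the 3′ end of mRNA. The authors trimmed reads with Trim Galore 0.6.2, quantified transcripts with Salmon 1.1.0 and summed them to genes with tximport. The deposited count table holds the authors' estimated counts per gene, rounded to whole numbers. The deposited TPM files hold, by their values, the estimated count of a gene times 1 factor per library with the same sum in every library, so that they are CPM in which gene length does not enter. Of the 40 count columns 39 were used and 1 was not, because its header and its values name different groups. 3 HT_1h columns and 1 HL_1h column were used for their group only.

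The rule was applied to TPM means of 4 replicates with a pseudocount of 1 TPM, which understates the change of low genes. Genes that reached 10 counts in 4 or more libraries entered 1 edgeR 4.0.16 quasi-likelihood fit over the 10 groups (R 4.3.3, glmQLFit and glmQLFTest after TMM scaling), and a call was an adjusted p (Benjamini-Hochberg over 14293 genes) under 0.05. Alternatives were total counts, DESeq2 1.42.0 with its own size factors, limma 3.58.1 on log2(TPM + 1), other thresholds, pseudocounts of 0.1 and 5 TPM, the second index as a covariate, a replicate block, both on reads recovered from the TPM files, and each library left out. Tables were made in Python 3.11.15 with pandas 2.3.3, numpy 2.4.6 and matplotlib 3.10.9. The fit was tested on simulated data.

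The members and the functional lists were chosen with earlier results of these data known. The text names the 8 members with the largest smallest effect, the 5 with the highest high light level, all members of the aromatic, phenylpropanoid, lignin, flavonoid and light signalling lists, up to 4 of each other list by mean effect, the 4 largest rises and 4 largest falls of the effect, genes next to each threshold, and pairs with the same Arabidopsis match. Genes called for a change of the light effect or in high temperature are also named, as are those said to be named after their values were seen. Annotations were taken from the study's supplementary tables, whose columns of fold changes and p-values were not used. The SE beside a log2 change is its size divided by the square root of the F statistic of its edgeR test. The floor of 3 counts covers counting error only. Each replicate was taken by the authors from 2 plants, and p-values measure the spread between these samples.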

Additional observations from a re-analysis of the deposited data

Results flagged for a closer look

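Over the 23 genes given by library, 230 groups of 4 libraries were checked for a library far from the other 3. Such a library was found in 8 groups, which is below the rate of about 1 in 20 that chance gives. The lowest library stood apart for *HY5* (Sevir.1G043300) in ctrl_4h, where replicate C was at 9.67 TPM, for *HY5* (Sevir.4G234900) in HL_2h, where replicate A was at 40.8 TPM, and for the DAHP synthase Sevir.2G406000 in HT_4h, where replicate A was at 33.7 TPM. The highest library stood apart for *4CL3* in HT_1h (replicate C, 10.5 TPM), for *ERF-1* in HL_2h (replicate B, 55.0 TPM), for the flavonoid 3′-hydroxylase in HT_4h (replicate A, 0.214 TPM), and for Sevir.9G259600 in ctrl_0h (replicate B, 0.325 TPM) and in HT_1h (replicate D, 0.296 TPM). The last 3 are single libraries with reads where the other 3 had none. None of these 8 libraries makes high light overlap with its control.

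The light effect differed between 1 and 4 h in 10 members by the edgeR contrast. The log2 change was 1.87 for Sevir.1G106700, 1.83 for Sevir.5G016400, 2.07 for *CHS* and 8.46 for the flavonoid 3′-hydroxylase, the last fitted against a group without reads and therefore no measure of size. It was −1.16 for Sevir.2G406000, −0.94 for *BGLU11*, −1.31 for *CFIM-25*, −1.90 for Sevir.6G257200, −3.42 for *HCT* and −1.39 for *CP1*. The rule required an effect of at least 1.5 at both times, and the part of the second index, which differs between HL_1h and HL_4h libraries, was not tested beyond the counts given.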

How the results depend on the processing

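The number of members depended on the thresholds. From 103 genes it became 56 with a pseudocount of 5 TPM (52 shared), 274 with a high light effect of at least 1, 47 with at least 2, 32 with a high temperature effect under 0.5, and 67 with a minimum of 20 TPM. With a pseudocount of 0.1 TPM it was 94, of which 81 were shared. Leaving out each library gave 82 to 111. Without each library in turn, 100 to 103, 103 to 103 and 102 to 103 members were called higher in high light at 1, 2 and 4 h. High temperature calls were fewer at 2 h with total counts (5), with the second index as covariate (4) and with limma (6), and at 4 h with the covariate (3). Without each library they ranged from 5 to 17, 1 to 12 and 2 to 10, the changed light effects from 5 to 12, and the controls against ctrl_0h from 7 to 17, 15 to 20 and 46 to 52. DESeq2 called 13 changes of the light effect, 6 larger and 7 smaller. The effects of the named genes moved by less than the replicate spread in 1665 cases and by more in 75, none changing sign, and 4 of them, in 3 low genes, were under 1 with a pseudocount of 5 TPM. Libraries of the control index alone gave 91 genes (72 shared) and TPM divided by TMM factors 75 (75 shared), both alternatives chosen after seeing the data. The causes were not tested.

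Replicate letters did not pair the samples. Deviations from group means of the 180 same-letter pairs correlated between −0.27 and 0.32 (median −0.02). With a replicate block, 103, 103 and 103 members were called in high light, 10, 11 and 8 in high temperature, 10 for the change of the light effect and 16, 18 and 49 between controls and ctrl_0h, within 1.5 times the counts without the block.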
